A study of Homo sapiens with 15 samples.

Results

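The inhibitors of DNA binding ID1, ID2, ID3 and ID4, their relatives in bone morphogenetic protein (BMP) signaling SMAD6 and SMAD9, the ligands BMP2, BMP4 and BMP7 and the antagonist GREM1 were followed in HaCaT cells, a human skin keratinocyte line that divides without limit. These 10 genes were chosen by name, with earlier results of these data known. All 10 were found among the 18179 genes of the tables for the 160 and 320 μg/mL doses. RNA was sequenced from 5 groups of 3 libraries. The control was untreated HaCaT cells, and the other groups received Ag2S NPs (silver sulfide nanoparticles that emit near-infrared light) or Li-doped Ag2S NPs (the same particle made with lithium ions) at 160 or 320 μg/mL for 24 h. HaCaT is a single line, the libraries are numbered 1 to 15, and separate cultures are stated nowhere, so p-values here measure only how much these libraries vary.

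BMPs are secreted ligands that bind paired receptor kinases, which phosphorylate SMAD1, SMAD5 and SMAD9. These join SMAD4, enter the nucleus and switch on the ID genes, which are classic early targets of the pathway, and SMAD6, which feeds back to block it. ID proteins carry a helix-loop-helix domain but cannot bind DNA, so they hold E proteins such as TCF3 and TCF12 in inactive pairs. In skin, ID genes are known for keeping keratinocytes proliferating.

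Expression was given as FPKM, a count of fragments corrected for the length of the transcript and the size of the library. The 10 keratinocyte markers each had a mean FPKM of at least 1 in every group. Their sum was 10021 to 10403 per control library and higher in all treated libraries. It was 15084 to 16473 and 15890 to 17822 with Ag2S NPs at 160 and 320 μg/mL. With Li-doped Ag2S NPs it was 13318 to 16145 and 27207 to 32671. Not every marker rose, and KRT5 had a mean of 4128 in control and 3195 with Li-doped Ag2S NPs at 160 μg/mL. The summed FPKM of 9 fibroblast markers was 13.1 to 16.2 in control libraries, 6.94 to 7.90 and 2.11 to 3.67 with Ag2S NPs at 160 and 320 μg/mL, and 2.44 to 4.68 and 3.78 to 6.97 with Li-doped Ag2S NPs at these doses. This fibroblast sum was thus lower in all treated libraries, as the ID genes were. Most of the fibroblast sum in control was DCN and LUM, at means of 7.08 and 5.19 in control and at most 2.15 and 1.89 in treated groups, while TWIST2 was 2.11 in control and 1.96 to 3.03 in treated groups. The sum of 5 endothelial markers, 3.36 to 4.01 in control and 0.07 to 0.81 in treated libraries, was mostly CDH5 (3.11 in control), and PECAM1 had a mean of at most 0.0067 in any group. Of 6 immune markers, whose sum was 26.1 to 29.6 with Li-doped Ag2S NPs at 160 μg/mL and 9.78 to 22.0 elsewhere, CD68 carried the difference (26.6 against 10.3 in control), while CD14 was 1.09 against 1.23 and CD3E was listed at 0. The part of these markers in the results was not tested. FPKM per library summed to 582451 to 698579, the highest being replicate 15 (Li-doped, 320 μg/mL). The tables hold no read numbers, so the depth is unknown. The 3 control libraries serve each comparison with control, so these comparisons are not independent of each other. In these bulk samples, fewer expressing cells and less RNA per cell cannot be told apart.

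The promoter letters of the genes that fell together are shown so that what they share can be seen. Of the 10 genes, 8 had an entry in RefSeq's GRCh38.p14 promoter windows of 300 bases, which run from 250 bases before to 50 after each gene's start. BMP2 and BMP7 had none. The stretches of ID1 (chr20:31605039-31605282, plus strand), ID2 (chr2:8681806-8681982, plus strand), ID4 (chr6:19837120-19837369, plus strand) and SMAD6 (chr15:66701986-66702227, plus strand) stop before the first annotated transcript start in the window. Of ID3, whose RefSeq start lies inside its longer GENCODE transcript, 30 bases are shown (chr1:23559631-23559660, minus strand). Capitals mark ATTGG (the CCAAT box), CAGAC (the SMAD-binding core) and TATAAA (the TATA box), each searched on both strands.
ID1: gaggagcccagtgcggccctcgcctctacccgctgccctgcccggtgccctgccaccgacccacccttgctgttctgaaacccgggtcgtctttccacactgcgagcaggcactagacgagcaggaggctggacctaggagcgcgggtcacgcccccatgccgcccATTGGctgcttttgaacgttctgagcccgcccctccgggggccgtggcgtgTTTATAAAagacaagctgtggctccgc
ID2: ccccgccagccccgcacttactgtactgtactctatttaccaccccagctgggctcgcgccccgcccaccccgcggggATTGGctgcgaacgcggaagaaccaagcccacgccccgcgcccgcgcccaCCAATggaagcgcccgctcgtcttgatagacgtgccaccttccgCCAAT
ID3: ggtcttcggcgtCAGACcagccggaggaag
ID4: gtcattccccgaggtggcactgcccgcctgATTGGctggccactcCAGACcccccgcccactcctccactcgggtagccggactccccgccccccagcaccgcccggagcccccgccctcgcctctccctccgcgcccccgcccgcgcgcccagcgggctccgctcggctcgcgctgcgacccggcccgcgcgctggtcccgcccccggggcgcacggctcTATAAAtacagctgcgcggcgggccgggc
SMAD6: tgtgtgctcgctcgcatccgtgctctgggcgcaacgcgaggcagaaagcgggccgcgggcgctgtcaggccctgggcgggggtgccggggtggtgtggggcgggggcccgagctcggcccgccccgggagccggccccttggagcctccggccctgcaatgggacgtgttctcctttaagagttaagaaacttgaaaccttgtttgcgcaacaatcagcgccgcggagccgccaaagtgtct
In the full windows, ATTGG occurred 3 times in ID2 and 1 time each in ID1, ID4 and SMAD6, against a share of 34.6% of all 35116 windows. CAGAC occurred in the windows of ID3 and ID4 and not in those of ID1, ID2 and SMAD6, and 45.3% of all windows hold it. TATAAA began 33 and 31 bases before the start of ID1, as overlapping matches on opposite strands, and 29 bases before that of ID4, and was absent from the windows of ID2, ID3 and SMAD6 (11.5% of all windows hold it). No motif of the 3 was common to ID1, ID2, ID3 and ID4. GGCGCC (19.2% of all windows) was found in none of these 5 genes, TGACG (24.6%) in ID3, where it overlaps CAGAC, and CANNTG (68.7%) in ID2, ID4 and SMAD6. A match is a run of letters and says nothing of binding.

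ID1, ID2, ID3 and ID4 were lower in all 12 treated libraries than in any control library. The share of all genes separated in this way was not counted, and the same holds for other separations of groups below. Between 23.8% and 44.6% of tested genes were called fallen in a comparison with control. ID1 (ENSG00000125968, chr20:31605283-31606515 in GRCh38, plus strand), a main BMP target in many cell types, had an FPKM of 408, 367 and 328 in control replicates 1, 2 and 3. Ag2S NPs gave 67.6, 82.8 and 75.2 at 160 μg/mL, then 65.4, 55.9 and 66.2 at 320 μg/mL. Replicates 10, 11 and 12 (Li-doped Ag2S NPs at 160 μg/mL) had 52.5, 33.2 and 39.7, and replicates 13, 14 and 15 (at 320 μg/mL) had 44.0, 42.4 and 57.4. The control libraries stood far above the rest, and among the treated libraries those of Ag2S NPs at 160 μg/mL were highest. Relative to control mean FPKM, ID1 was 4.89-fold and 5.89-fold lower with Ag2S NPs at 160 and 320 μg/mL and 8.80-fold and 7.68-fold lower with Li-doped Ag2S NPs.

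ID3 (ENSG00000117318, chr1:23557918-23559794, minus strand), which is often induced with ID1, was at a level near that of ID1 in control cells, with an FPKM of 393, 387 and 363. It had 89.1, 112 and 104 with Ag2S NPs at 160 μg/mL, then 78.2, 86.4 and 98.9 at 320 μg/mL. The Li-doped particle gave 24.9, 30.04 and 24.0 at 160 μg/mL, then 86.5, 97.7 and 113 at 320 μg/mL. The 3 libraries of Li-doped Ag2S NPs at 160 μg/mL were apart from all other treated libraries, at 6.90% of the control mean against 23.0% to 26.7% in the other treated groups.

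ID2 (ENSG00000115738, chr2:8678845-8684453, plus strand), which is also expressed outside BMP-responding cells, had an FPKM of 42.4, 48.8 and 49.2 in control. It had 6.04, 6.73 and 6.30 with Ag2S NPs at 160 μg/mL, then 4.20, 4.18 and 3.52 at 320 μg/mL. For the Li-doped particle the values were 2.95, 4.04 and 3.95 at 160 μg/mL, then 5.33, 8.15 and 7.89 at 320 μg/mL. The higher dose thus held the lower values with Ag2S NPs and the higher values with Li-doped Ag2S NPs, without overlap between the doses of either particle. How many of all genes lacked such overlap was not counted. Of all tested genes, 7.68% were called lower at 320 μg/mL with Ag2S NPs and 19.6% higher with Li-doped Ag2S NPs.

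ID4 (ENSG00000172201, chr6:19837386-19840684, plus strand), the least abundant of the family, had an FPKM of 15.6, 14.2 and 14.4 in control. Its 12 treated values ran from 0.66 to 1.72, and the group means were 1.04 ± 0.593, 0.79 ± 0.105, 0.78 ± 0.191 and 0.90 ± 0.135 (SD, n = 3) with Ag2S NPs at 160 and 320 μg/mL and Li-doped Ag2S NPs at 160 and 320 μg/mL. The treated groups overlapped one another, and the highest value was replicate 6 of Ag2S NPs at 160 μg/mL. ID4 passed the filter on low values, a mean FPKM of 1 over the libraries of a fit, through the control.

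SMAD6 (ENSG00000137834, chr15:66702228-66782848, plus strand), the inhibitory SMAD that BMP signals induce, moved the same way with a smaller amplitude. It had an FPKM of 11.7, 11.8 and 8.64 in control, of 4.32, 5.36 and 4.10 with Ag2S NPs at 160 μg/mL and of 3.25, 4.02 and 4.39 at 320 μg/mL. Under Li-doped Ag2S NPs it had 2.91, 2.31 and 2.90 at 160 μg/mL, then 3.99, 4.70 and 3.91 at 320 μg/mL. No treated library reached the lowest control library, and Li-doped Ag2S NPs at 160 μg/mL again held the lowest values. For SMAD6 too, the share of all genes separated in this way was not counted. SMAD9 (ENSG00000120693, chr13:36844831-36920765, minus strand), a SMAD that BMP receptors phosphorylate, had an FPKM of 0.06 to 0.31 in control and 0.02 to 0.22 in treated libraries, below the filter in each fit, and was not tested.

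**Figure D1:**
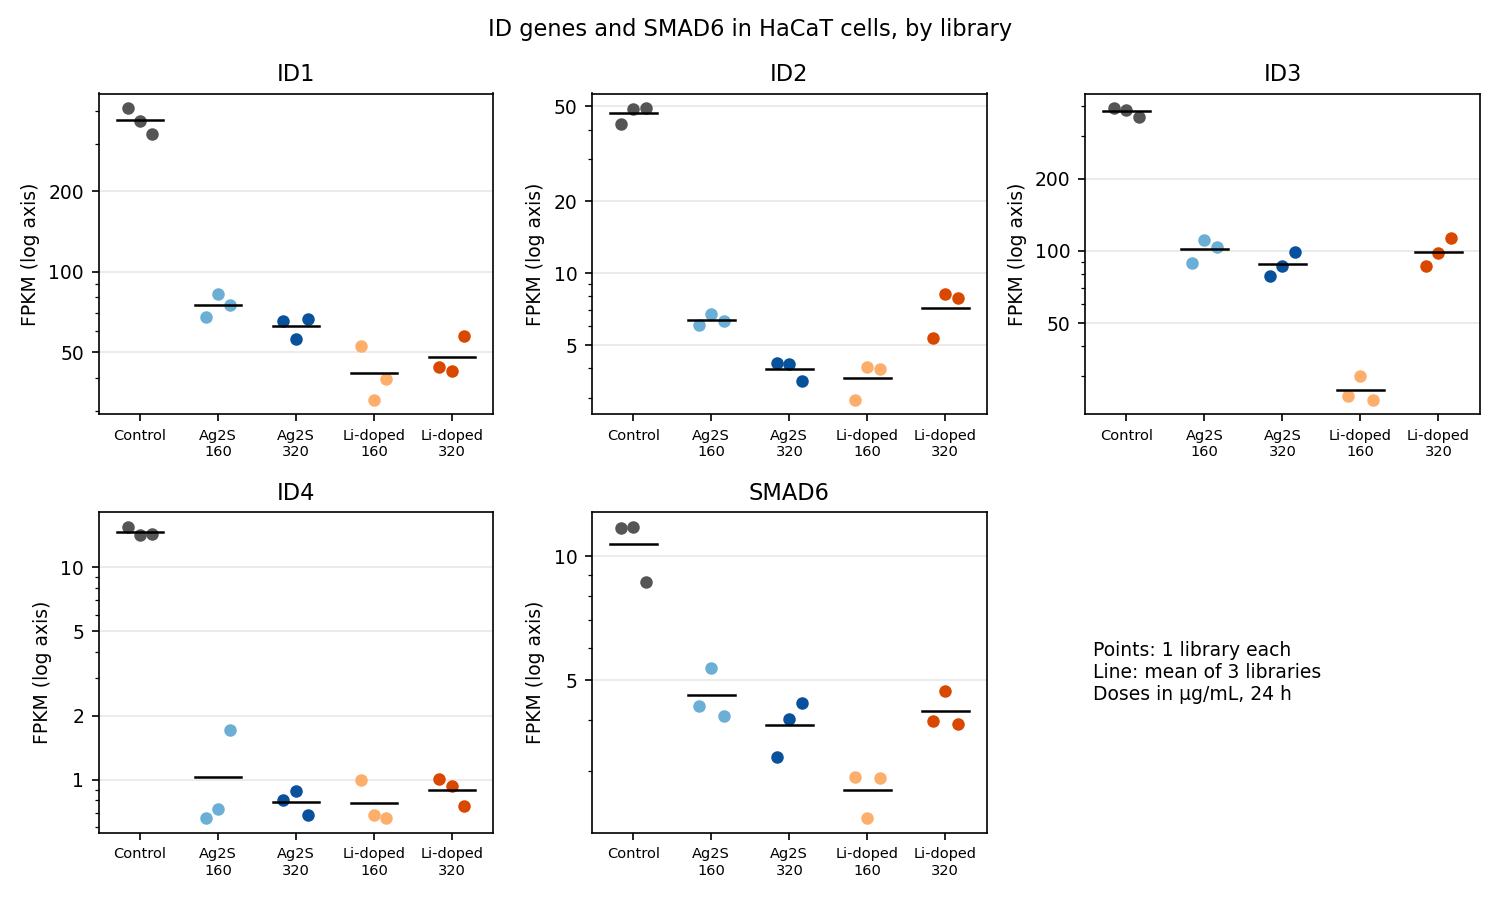
FPKM on a log axis of ID1, ID2, ID3, ID4 and SMAD6 in each of the 15 libraries, by group, with doses in μg/mL. Points are libraries and lines are means of 3. The control libraries lie above all treated libraries in each panel, and ID3 is lowest with Li-doped Ag2S NPs at 160 μg/mL, at 24.0 to 30.04.

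Against control, the falls of ID1, ID2, ID3, ID4 and SMAD6 passed the test with both particles at both doses. The test was limma on log2(FPKM + 0.1), fitted over all genes of a dose with Benjamini-Hochberg adjusted p-values, and changes below are log2 differences on that scale with 95% intervals. With Ag2S NPs at 160 μg/mL, ID4 differed by -3.82 (-4.51 to -3.13), ID2 by -2.86 (-3.15 to -2.57), ID1 by -2.29 (-2.62 to -1.96), ID3 by -1.91 (-2.14 to -1.69) and SMAD6 by -1.20 (-1.58 to -0.82). At this dose limma called 5 of the 8 tested members fallen (ID1, ID2, ID3, ID4 and SMAD6) and 2 risen (BMP2 and BMP7), where 23.8% of 11987 genes were fallen and 11.5% risen, 35.2% in all. ID4 passed the filter through the control, the group where it is high, so its place in these counts is no support for them. Counted from the largest fall of these 11987 genes, ID2 ranked 12, ID1 28, ID3 47 and SMAD6 240. The members were chosen with earlier results of these data known. Their ranks and counts, here and in the other comparisons, are therefore a description and no independent support. The change of ID4 was -2.98 with a pseudocount of 1 and -4.22 without replicate 6, the ends of its range over the alternatives tried.

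With Li-doped Ag2S NPs at 160 μg/mL, ID4 differed by -4.09 (-4.78 to -3.40), ID3 by -3.86 (-4.08 to -3.63), ID2 by -3.66 (-3.95 to -3.37), ID1 by -3.15 (-3.48 to -2.82) and SMAD6 by -1.94 (-2.32 to -1.56). The same 5 of the 8 tested members fell and 1 rose (BMP7), where 40.6% of genes were fallen and 22.6% risen, 63.3% in all. ID4 passed the filter through the control here too, so it is no support for this count. ID3 ranked 42, ID2 52, ID1 92 and SMAD6 419 from the largest fall of 11987 genes.

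At 320 μg/mL, the 5 genes also fell with either particle. With Ag2S NPs, ID1 differed by -2.55 (-2.82 to -2.29) and SMAD6 by -1.44 (-1.80 to -1.07). With Li-doped Ag2S NPs, ID1 differed by -2.95 (-3.21 to -2.68) and SMAD6 by -1.32 (-1.69 to -0.96). Of the 8 tested members, 5 fell and 2 rose (BMP2 and BMP7) with each particle, where 36.2% of 11903 genes were fallen and 16.2% risen (52.4% in all) with Ag2S NPs and 44.6% were fallen and 17.0% risen (61.6% in all) with Li-doped Ag2S NPs. At this dose as well, ID4 passed the filter through the control and is no support for these counts. The falls of the 5 genes were larger than the shift of all genes, whose median log2 difference from control was -0.14 and -0.19 with Ag2S NPs and -0.19 and -0.26 with Li-doped Ag2S NPs at 160 and 320 μg/mL. After scaling by median ratio the calls over all genes were 2071 risen and 1535 fallen and 2889 and 2549 with Ag2S NPs, and 3674 and 3616 and 3383 and 3089 with Li-doped Ag2S NPs, in place of 1373 and 2847, 1923 and 4309, 2715 and 4869, and 2018 and 5313. The falls of ID1, ID2, ID3, ID4 and SMAD6 passed in all 4 comparisons after that scaling too.

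**Figure D2:**
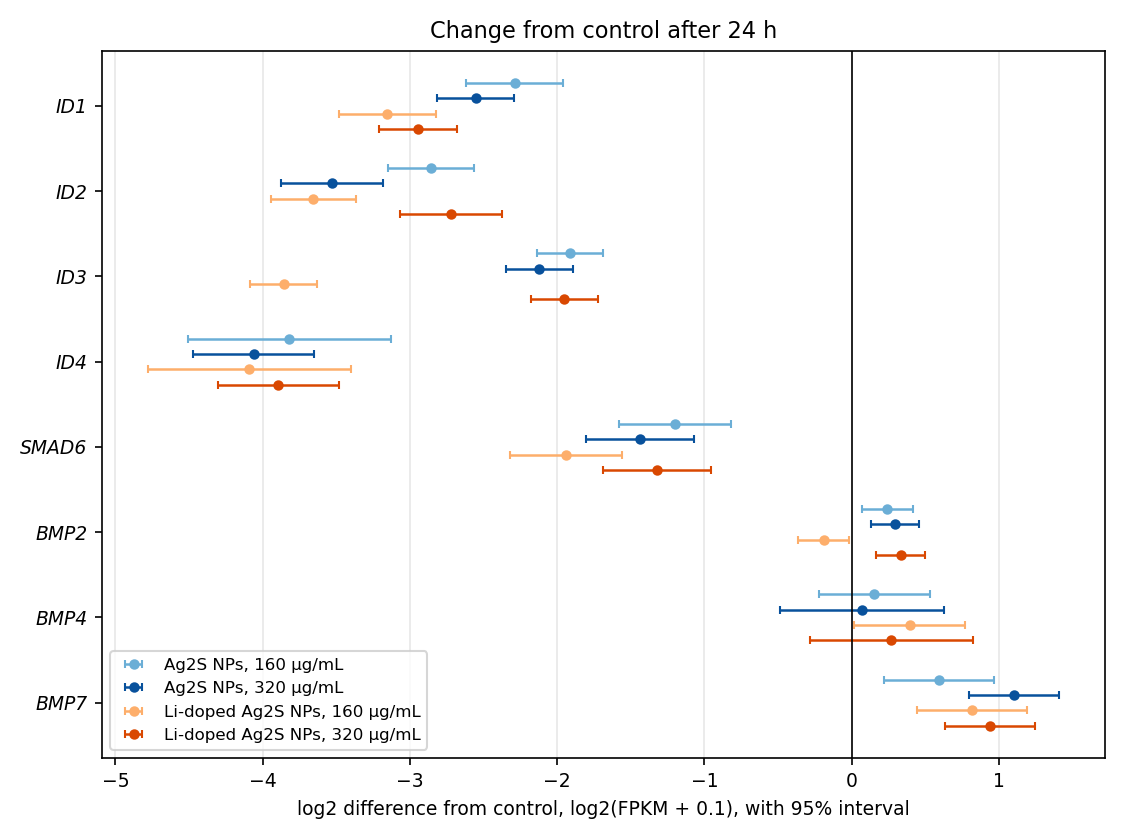
Log2 difference from control of the 8 tested members, on log2(FPKM + 0.1), with 95% intervals, for each particle and dose in μg/mL. All intervals of the ID genes and SMAD6 lie below 0, those of BMP7 lie above 0, and ID3 with Li-doped Ag2S NPs at 160 μg/mL (-3.86) stands apart from its other 3 values.

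At 160 μg/mL, ID3, ID1, ID2 and SMAD6 were lower with Li-doped than with undoped Ag2S NPs, and at 320 μg/mL ID2 was higher. The particles were compared at both matched doses, which makes 2 pairs. At 160 μg/mL, the members with lower expression with Li-doped than with undoped Ag2S NPs were ID3 (log2 difference -1.95, 95% interval -2.17 to -1.72, limma adjusted p = 1.31e-07), ID1 (-0.87, -1.20 to -0.54, adjusted p = 0.000678), ID2 (-0.80, -1.09 to -0.51, adjusted p = 0.000514), SMAD6 (-0.74, -1.12 to -0.36, adjusted p = 0.0045) and BMP2 (-0.43, -0.60 to -0.26, adjusted p = 0.000848). No member was higher, where 29% of genes were lower and 21.4% higher, 50.4% in all. For ID4 the difference was -0.27 (-0.96 to 0.42), for BMP4 0.24 (-0.14 to 0.62) and for BMP7 0.22 (-0.15 to 0.59), none of which passed.

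At 320 μg/mL, ID2 was 1.75-fold higher with Li-doped than with undoped Ag2S NPs (log2 difference 0.81, 0.46 to 1.15, limma adjusted p = 0.00443). ID1 was lower by a log2 difference of -0.39 (-0.66 to -0.13, limma adjusted p = 0.0335), but its libraries overlapped, at 42.4 to 57.4 against 55.9 to 66.2. The ID1 call was lost after scaling by median ratio (-0.32, limma adjusted p = 0.137) and without any of control replicate 2 and replicates 7, 9, 13 or 14 (-0.39, -0.36, -0.35, -0.34 and -0.31). These calls, 1 risen and 1 fallen of 8 tested, stood beside 10.1% of genes higher and 16.1% lower, 26.2% in all. For ID3 the difference was 0.17 (-0.06 to 0.40), for ID4 0.17 (-0.24 to 0.58), for SMAD6 0.12 (-0.25 to 0.48), for BMP2 0.04 (-0.13 to 0.20), for BMP4 0.20 (-0.35 to 0.76) and for BMP7 -0.16 (-0.47 to 0.15), which did not pass.

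ID2 was lower at 320 than at 160 μg/mL with Ag2S NPs and higher with Li-doped Ag2S NPs. Dose here cannot be told apart from other differences in how those cells were grown or sequenced, which the labels do not give. Dose was tested in a limma fit over all 15 libraries. With Ag2S NPs, ID2 fell further from 160 to 320 μg/mL, by 0.67 on the log2 scale (95% interval -1.01 to -0.33, limma adjusted p = 0.0132), a call that was lost without replicate 9 (-0.59, limma adjusted p = 0.0604). This was the 1 fallen member of 8 tested, where 7.68% of 11952 genes fell and 4.84% rose, 12.5% in all. A count of 1 in 8 is near that share of all genes and is no result about the members. ID1 (-0.27, -0.59 to 0.06), ID3 (-0.21, -0.46 to 0.04), SMAD6 (-0.24, -0.60 to 0.13) and ID4 (-0.24, -0.87 to 0.38) did not pass.

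With Li-doped Ag2S NPs, 4 of the 8 tested members were higher at 320 than at 160 μg/mL, and none was lower, where 19.6% of genes were higher and 23.3% lower, 42.8% in all. ID3 rose 3.75-fold (log2 difference 1.91, 1.66 to 2.15, limma adjusted p = 5.94e-09), ID2 1.91-fold (0.94, 0.59 to 1.28, adjusted p = 0.000266), SMAD6 1.54-fold (0.62, 0.25 to 0.98, adjusted p = 0.00865) and BMP2 1.44-fold (0.52, 0.37 to 0.68, adjusted p = 3.72e-05). ID1 (0.21, -0.11 to 0.53) and ID4 (0.20, -0.43 to 0.82) did not pass, and ID1 passed without replicate 10, the highest of its group (0.39, limma adjusted p = 0.043).

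The dose effects differed between the particles for the same 4 genes. The difference, Li-doped minus undoped, was 2.12 for ID3 (1.77 to 2.47, limma adjusted p = 1.16e-07), 1.61 for ID2 (1.12 to 2.09, adjusted p = 5.77e-05), 0.85 for SMAD6 (0.34 to 1.37, adjusted p = 0.0107) and 0.47 for BMP2 (0.25 to 0.69, adjusted p = 0.00193). Of all genes, 20.2% had a positive and 19.5% a negative difference that passed, 39.7% in all. For ID1 the difference was 0.47 (0.02 to 0.93, limma adjusted p = 0.0904) and passed without replicate 10 (0.65, limma adjusted p = 0.0144), and for ID4 it was 0.44 (-0.44 to 1.32).

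**Figure D3:**
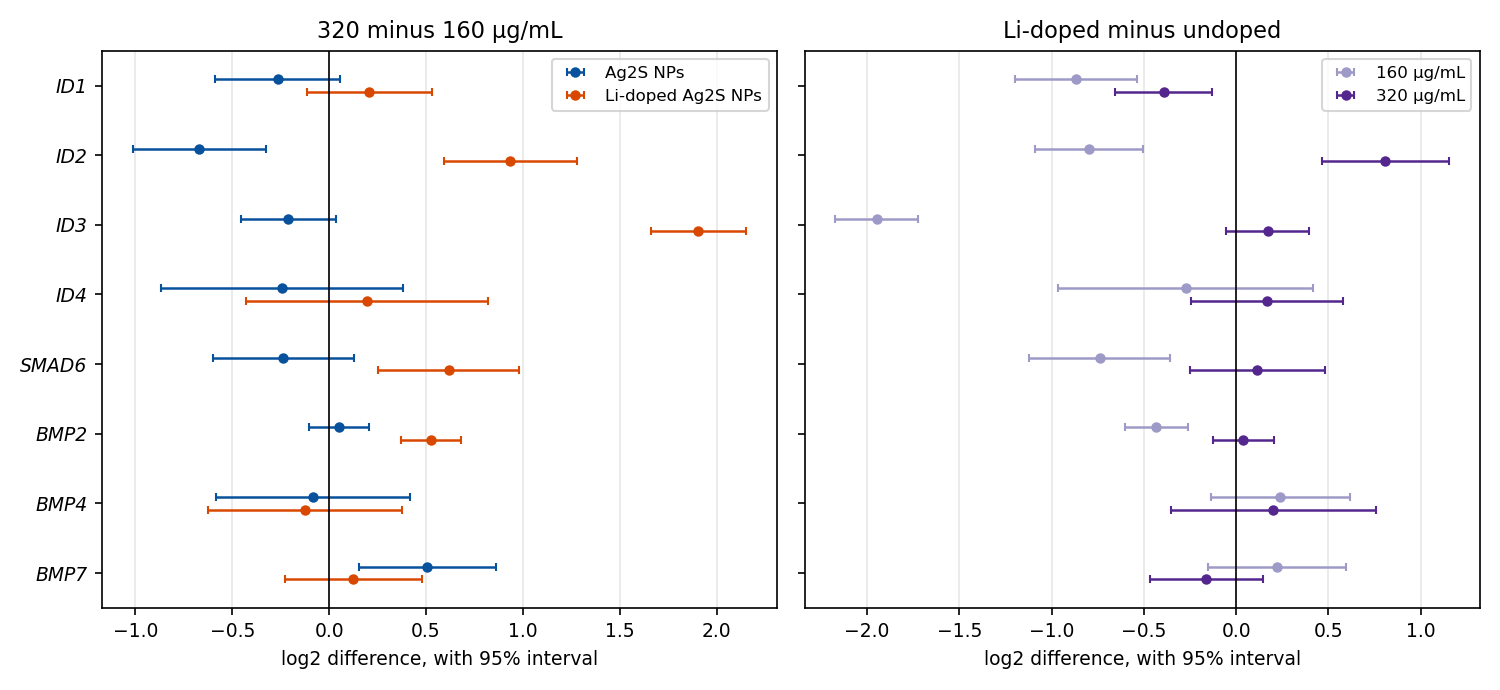
Left, log2 difference of 320 minus 160 μg/mL for Ag2S NPs and Li-doped Ag2S NPs. Right, log2 difference of Li-doped minus undoped Ag2S NPs at each dose. Points with 95% intervals are given for the 8 tested members, and ID3 has the largest values, 1.91 on the left and -1.95 on the right.

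Summed over the family, ID expression was lowest with Li-doped Ag2S NPs at 160 μg/mL. ID1, ID2, ID3 and ID4 together reached a summed FPKM of 810 ± 53.0 in control (SD, n = 3), 184 ± 19.4 and 155 ± 12.4 with Ag2S NPs at 160 and 320 μg/mL, and 72.5 ± 7.62 and 155 ± 21.6 with Li-doped Ag2S NPs. The control libraries (754 to 860) and those of Li-doped Ag2S NPs at 160 μg/mL (68.0 to 81.3) were apart from all others (137 to 202). ID3 made up 47.1% ± 1.19 of the ID total in control and 63.9% ± 1.36 with Li-doped Ag2S NPs at 320 μg/mL, but 36.6% ± 6.93 with Li-doped Ag2S NPs at 160 μg/mL, where ID1 made up 57.2% ± 7.89. The E proteins TCF3, TCF4 and TCF12 together had an FPKM of 79.5 ± 5.83 in control and group means of 82.1 to 92.4 in treated cells. The ratio of summed ID to summed E protein FPKM was 10.2 ± 0.386 in control, 1.99 ± 0.167 and 1.74 ± 0.232 with Ag2S NPs, and 0.843 ± 0.093 and 1.92 ± 0.465 with Li-doped Ag2S NPs, at 160 and 320 μg/mL.

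Some other genes on the lists read here also had values with Li-doped Ag2S NPs at 160 μg/mL unlike those of the other groups. GDF15, a stress-induced secreted factor, had an FPKM of 16.4, 10.1 and 10.8 in these libraries and at most 0.72 in each of the other 12. It passed the filter at 160 μg/mL only through this group, where it is high, and is no support. BMP6, a ligand, had 2.41, 2.23 and 2.58 against at most 0.41, and was below the filter. The antagonist NOG, also below the filter, had 0.41 to 0.56 in these libraries and at most 0.16 elsewhere. MYC, a growth-promoting factor, had 125, 106 and 107 against 22.8 to 41.1. Between the particles at 160 μg/mL, 50.4% of all genes were called different, so differences of this group were common. These values move with the deeper fall of ID3, and their part in it was not tested.

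BMP2, BMP4 and BMP7 did not fall with the ID genes in the tests against control. BMP7 (ENSG00000101144, chr20:57168748-57266629, minus strand), an epithelial ligand, had an FPKM of 6.73, 8.25 and 6.86 in control. It had 9.14, 11.1 and 13.1 with Ag2S NPs at 160 μg/mL, then 13.9, 17.4 and 15.9 at 320 μg/mL. The Li-doped particle gave 10.96, 12.1 and 15.9 at 160 μg/mL, then 14, 11.9 and 16.5 at 320 μg/mL. All treated libraries were above all control libraries. The share of all genes separated in this way was not counted. By limma, a different measure, 11.5% to 22.6% of all tested genes were called risen in a comparison with control. BMP7 rose by a log2 difference of 0.59 (0.22 to 0.97, limma adjusted p = 0.0201) and 1.1 (0.79 to 1.41, adjusted p = 6.75e-05) with Ag2S NPs at 160 and 320 μg/mL and of 0.82 (0.44 to 1.19, adjusted p = 0.0015) and 0.94 (0.63 to 1.25, adjusted p = 0.00018) with Li-doped Ag2S NPs. At 160 μg/mL of Ag2S NPs the call was lost without any of control replicates 1 and 3 and replicates 5 and 6 (0.54, 0.56, 0.59 and 0.47). The increase from 160 to 320 μg/mL with Ag2S NPs, without overlap, was 0.51 (0.15 to 0.86, limma adjusted p = 0.0582), and it passed without any of replicates 6, 12 and 15 (0.63, 0.51 and 0.51).

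BMP2 (ENSG00000125845, chr20:6767664-6780280, plus strand), the BMP ligand with the highest FPKM in control among those listed, had a mean FPKM of 16.5 ± 0.273 in control (SD, n = 3), 19.6 ± 0.718 and 20.3 ± 0.196 with Ag2S NPs at 160 and 320 μg/mL, and 14.5 ± 0.54 and 20.9 ± 1.17 with Li-doped Ag2S NPs. The 3 libraries of Li-doped Ag2S NPs at 160 μg/mL (13.99 to 15.1) lay below control (16.2 to 16.7), while all others lay above it (19.0 to 22.2). BMP2 rose by a log2 difference of 0.24 (0.07 to 0.41, limma adjusted p = 0.0326) and 0.29 (0.13 to 0.46, adjusted p = 0.00704) with Ag2S NPs and of 0.33 (0.17 to 0.50, adjusted p = 0.0028) with Li-doped Ag2S NPs at 320 μg/mL. The call with Ag2S NPs at 160 μg/mL was lost without any of control replicates 1, 2 and 3 and replicate 5 (0.25, 0.25, 0.23 and 0.21). With Li-doped Ag2S NPs at 160 μg/mL the difference was -0.19 (-0.36 to -0.02, limma adjusted p = 0.051), close to the median of all genes there. It passed in 7 of 19 alternatives, with adjusted p from limma as low as 0.0178, among them those without replicate 6 (-0.19) or 12 (-0.22), and after scaling by median ratio it was -0.0046.

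BMP4 (ENSG00000125378, chr14:53949736-53958761, minus strand), a ligand closely related to BMP2, had an FPKM of 5.11 ± 0.887 in control, 5.65 ± 0.295 and 5.61 ± 2.38 with Ag2S NPs and 6.77 ± 1.27 and 6.18 ± 1.02 with Li-doped Ag2S NPs (SD, n = 3) at 160 and 320 μg/mL. Replicate 9 of Ag2S NPs at 320 μg/mL, at 8.33, was far above replicates 7 and 8, at 4.6 and 3.91. The treated groups overlapped control, and the log2 differences of 0.15, 0.07, 0.39 and 0.27 did not pass. The 0.39 of Li-doped Ag2S NPs at 160 μg/mL passed without control replicate 3 (0.53, limma adjusted p = 0.0286) or replicate 10 (0.56, limma adjusted p = 0.0144) and after scaling by median ratio (0.58, limma adjusted p = 0.0127). GREM1 (ENSG00000166923, chr15:32717974-32745107, plus strand), a secreted BMP antagonist, was listed at 0 in 10 of the 15 libraries and at most 0.14 in the others, below the filter.

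**Figure D4:**
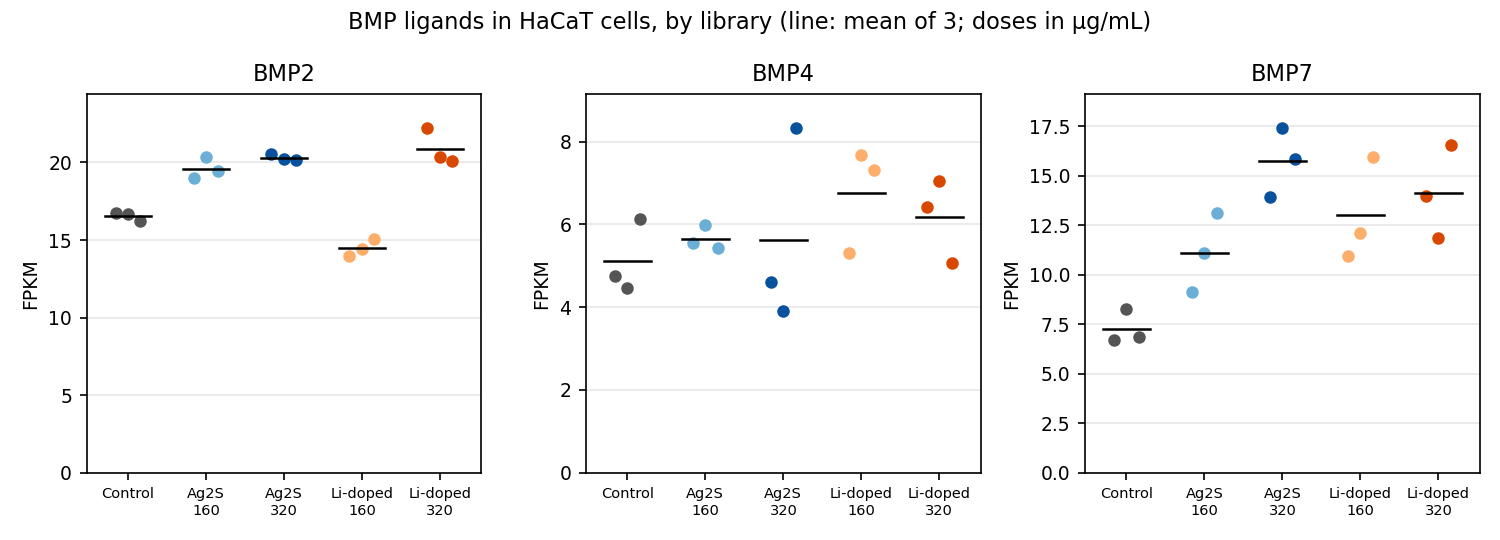
FPKM of BMP2, BMP4 and BMP7 in each of the 15 libraries, by group, with doses in μg/mL. Points are libraries and lines are means of 3. BMP7 is higher in all treated libraries (9.14 to 17.4) than in control (6.73 to 8.25), and BMP2 dips with Li-doped Ag2S NPs at 160 μg/mL (13.99 to 15.1).

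For ID1 and ID3, most of the signal in the deposited transcript tables came from 1 coding transcript. ENST00000376112 carried 82.5% to 94.8% of the FPKM of ID1 in each of the 15 libraries, ENST00000374561 carried 91.2% to 98.2% of that of ID3, and ID4 and BMP2 had 1 transcript each. For ID2, ENST00000396290 carried 48.5% to 100.0%. For SMAD6, the coding ENST00000288840 carried 44.7% to 73.6%, and the processed transcript ENST00000612349 a further 20.7% to 35.9%. BMP7 was divided among transcripts, with 19.0% to 39.8% in ENST00000395863, 19.5% to 39.7% in ENST00000395864 and 5.75% to 39.7% in the processed transcript ENST00000460817. BMP4 had no main transcript, with 0% to 70.8% in ENST00000245451 and 0% to 57.0% in ENST00000559087. Genes on the opposite strand overlap ID2 (ID2-AS1, over 3019 bases), ID4 (AL022068.1, over 1695 bases), BMP7 (BMP7-AS1, over 995 bases) and GREM1 (the lincRNA AC090877.2, over 1034 bases). The counting is not stated to use strand, so reads of such pairs cannot be told apart.

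The counts of the lists that follow are to be read beside the shares of all tested genes that rose and fell against control, 11.5% and 23.8% with Ag2S NPs at 160 μg/mL, 16.2% and 36.2% with Ag2S NPs at 320 μg/mL, 22.6% and 40.6% with Li-doped Ag2S NPs at 160 μg/mL, and 17.0% and 44.6% with Li-doped Ag2S NPs at 320 μg/mL. The lists hold few genes, and no list was tested as a set. Of the antagonists, which bind BMPs or related ligands outside the cell or at its surface, 16 were listed and 7 were tested. With Ag2S NPs, 5 rose and 0 fell at 160 μg/mL and 6 rose and 0 fell at 320 μg/mL. For the Li-doped particle, 4 rose and 1 fell at 160 μg/mL, and 5 rose and 1 fell at 320 μg/mL. The median log2 differences of the 7 were 1.01, 1.22, 0.38 and 1.09 in that order. The follistatin gene FST, whose product binds activin and, less tightly, BMPs, had a control FPKM of 4.03 ± 0.701 (SD, n = 3) and rose to 18.8 ± 0.686 and 25.7 ± 3.96 with Ag2S NPs and to 41.3 ± 4.08 and 42.4 ± 5.68 with Li-doped Ag2S NPs at 160 and 320 μg/mL. FSTL3, a follistatin relative, rose from 9.96 ± 0.715 to 32.9 ± 3.65, 51.9 ± 2.85, 41.1 ± 3.6 and 44.9 ± 1.76 in the same order. SOST, which is counted in this list, encodes sclerostin, a Wnt antagonist of the cystine knot family. It had 1.21 ± 0.139 in control, 3.39 ± 0.196, 5.45 ± 0.575 and 5.49 ± 0.643 where it rose, and 1.03 ± 0.0577 with Li-doped Ag2S NPs at 160 μg/mL, where it did not pass. TWSG1, which modulates BMP binding to chordin, fell with Li-doped Ag2S NPs, from 12.04 ± 0.495 to 7.79 ± 0.644 and 7.94 ± 1.47.

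Among the 20 listed BMP and GDF ligands, the tested genes beside BMP2, BMP4 and BMP7 were BMP3, GDF11 and, at 160 μg/mL, GDF15. BMP3, an atypical ligand that opposes other BMPs, fell from an FPKM of 4.19 ± 0.375 to 0.63 ± 0.0346 and 0.127 ± 0.0586 with Ag2S NPs and 0.09 ± 0.01 and 0.0667 ± 0.0231 with Li-doped Ag2S NPs at 160 and 320 μg/mL, and it passed the filter through the control. GDF11, a ligand that signals through SMAD2 and SMAD3, rose from 2.20 ± 0.35 to 4.12 ± 0.424, 4.04 ± 0.352, 4.47 ± 0.63 and 5.13 ± 0.961. GDF15 passed the filter at 160 μg/mL through Li-doped Ag2S NPs, the group where it is high. With the 3 members included, 3 ligands rose and 1, BMP3, fell in each of the 4 comparisons with control, of 6 tested at 160 μg/mL and 5 tested at 320 μg/mL. These counts include genes that passed the filter through the group where they are high and are no support for a change of the list.

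Of the 12 listed receptors and co-receptors, 7 were tested at 160 μg/mL and 6 at 320 μg/mL. With Ag2S NPs, 1 rose and 0 fell at either dose, and with Li-doped Ag2S NPs, 1 rose and 3 fell at 160 μg/mL and 1 rose and 2 fell at 320 μg/mL. After scaling by median ratio 1 of the 3 falls at 160 μg/mL was left, that of BMPR2. BMPR2, the type 2 BMP receptor, had an FPKM of 15.7 ± 0.544 in control, 15.6 ± 1.21 and 14.4 ± 1.12 with Ag2S NPs and 8.59 ± 0.356 and 9.66 ± 1.90 with Li-doped Ag2S NPs at 160 and 320 μg/mL. Its fall passed with Li-doped Ag2S NPs only, and it was lower with Li-doped than with undoped Ag2S NPs at 160 μg/mL (log2 difference -0.85, limma adjusted p = 2.37e-05) and at 320 μg/mL (-0.59, limma adjusted p = 0.00925). BMPR1A, a type 1 receptor, fell from 14.5 ± 1.40 to 10.8 ± 1.53 and 8.29 ± 1.52 with Li-doped Ag2S NPs, the first of which did not pass after scaling by median ratio. Nor did the fall of ACVR1, another type 1 receptor, at 160 μg/mL (-0.31, limma adjusted p = 0.0168, and -0.12, limma adjusted p = 0.273, after scaling). NEO1, which encodes the co-receptor neogenin, was the gene that rose, from 2.05 ± 0.31 to 4 ± 0.0917, 6.26 ± 0.69, 8.81 ± 1.32 and 4.85 ± 0.573.

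The SMAD list of 14 genes, SMAD6 and SMAD9 included, had 13 tested genes, of which 1 rose and 1 fell with Ag2S NPs at 160 μg/mL, 3 rose and 2 fell at 320 μg/mL, and 1 rose and 5 fell and 1 rose and 6 fell with Li-doped Ag2S NPs at these doses. With libraries scaled by median ratio, 3 genes rose and 1 fell with Ag2S NPs at either dose, and 1 rose and 3 fell and 3 rose and 2 fell with Li-doped Ag2S NPs. The BMP SMAD genes SMAD1 and SMAD5 had control FPKM of 10.6 ± 0.686 and 21.5 ± 0.748. With Ag2S NPs their log2 differences from control, -0.19 and -0.17 for 160 μg/mL, and -0.31 and -0.17 for 320 μg/mL, did not pass. With Li-doped Ag2S NPs, SMAD1 fell at 160 μg/mL (-0.58, limma adjusted p = 0.00403) and SMAD5 at 320 μg/mL (-0.53, limma adjusted p = 0.0053), a call that scaling by median ratio removed (-0.27, limma adjusted p = 0.0602). SMAD4, the common partner of the SMADs, fell with Li-doped Ag2S NPs at 320 μg/mL (-0.32, limma adjusted p = 0.0221), which scaling also removed (-0.063, limma adjusted p = 0.575). SMAD7, an inhibitory SMAD that both BMP and TGF-β signals induce, went the other way from SMAD6. Its FPKM was 12.2 ± 2.37 in control, 15.8 ± 2.38 and 21.8 ± 0.301 with Ag2S NPs and 22.6 ± 1.76 and 17.7 ± 0.23 with Li-doped Ag2S NPs, and the rise passed in all but Ag2S NPs at 160 μg/mL (0.37, limma adjusted p = 0.0816), where it passed after scaling by median ratio (0.52, limma adjusted p = 0.0235).

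Of 15 other BMP target genes, 11 were tested, and they did not share a direction. With Ag2S NPs, 3 rose and 3 fell at 160 μg/mL and 6 rose and 2 fell at 320 μg/mL, and with Li-doped Ag2S NPs 4 rose and 5 fell and 5 rose and 4 fell. With libraries scaled by median ratio, 5 genes rose and 1 fell and 6 rose and 1 fell with Ag2S NPs, and 4 rose and 4 fell and 6 rose and 3 fell with Li-doped Ag2S NPs. GATA3, a factor of skin and T cell differentiation, fell in all 4 comparisons, with an FPKM of 32.1 ± 0.462 in control, 17.3 ± 1.26 and 11.9 ± 0.939 with Ag2S NPs and 3.39 ± 0.369 and 8.78 ± 0.801 with Li-doped Ag2S NPs at 160 and 320 μg/mL. DLX3, a homeobox factor of the differentiating epidermis, rose from 4.72 ± 0.678 to 6.92 ± 0.62, 9.26 ± 0.75, 6.85 ± 0.647 and 9.88 ± 0.521. TNFRSF11B, which encodes the decoy receptor osteoprotegerin, rose from 13.7 ± 0.79 to 23.1 ± 1.95 and 19.3 ± 1.71 with Ag2S NPs and to 17.5 ± 1.91 with Li-doped Ag2S NPs at 320 μg/mL, and fell to 2.60 ± 0.93 with Li-doped Ag2S NPs at 160 μg/mL.

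Of the E proteins, partners of the ID proteins, TCF3 had a control FPKM of 45.1 ± 3.08 and rose to 56.0 ± 5.03 and 58.9 ± 5.87 with Ag2S NPs and 56.3 ± 7.94 and 55.0 ± 8.35 with Li-doped Ag2S NPs at 160 and 320 μg/mL, log2 differences of 0.31, 0.38, 0.31 and 0.28. TCF4 rose from 3.62 ± 0.447 to 5.92 ± 1.17 and 5.26 ± 0.645 with Ag2S NPs and 5.51 ± 0.0379 with Li-doped Ag2S NPs at 320 μg/mL, and was 3.71 ± 0.832 with Li-doped Ag2S NPs at 160 μg/mL, where it did not pass. TCF12 fell with Li-doped Ag2S NPs, by 0.22 and 0.52 on the log2 scale, both lost after scaling by median ratio. Of the 12 listed E proteins and other helix-loop-helix factors, 10 were tested, with 3 risen and 5 fallen with Ag2S NPs at either dose, and 4 risen and 4 fallen and 2 risen and 7 fallen with Li-doped Ag2S NPs. With libraries scaled by median ratio, 3 genes rose and 3 fell with Ag2S NPs at either dose, and 4 rose and 3 fell and 3 rose and 4 fell with Li-doped Ag2S NPs. BHLHE41, a repressor with a clock role, fell from 58.3 ± 6.89 to 29.3 ± 2.06, 14.96 ± 3.25, 12.6 ± 3.47 and 8.61 ± 2.41.

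Of 18 listed genes of the TGF-β and activin arm 12 were tested, with 7 risen in each of the 4 comparisons and 2 and 3 fallen with Ag2S NPs and 3 and 4 fallen with Li-doped Ag2S NPs at 160 and 320 μg/mL, where 11.5% to 22.6% of all genes rose and 23.8% to 44.6% fell. TGFB1, the ligand the study followed, rose from an FPKM of 24.2 ± 1.39 to 47.6 ± 3.79 and 51.3 ± 2.30 with Ag2S NPs and 75.6 ± 10.9 and 64.3 ± 5.86 with Li-doped Ag2S NPs. SMAD3, a TGF-β SMAD, fell from 77.6 ± 1.41 to 48.5 ± 8.02 and 48.5 ± 3.30, and 43.4 ± 1.56 and 38.0 ± 5.89. SMAD2, another TGF-β SMAD, had 67.7 ± 2.85 in control, then 66.5 ± 5.66 and 69.0 ± 1.92, and 70.4 ± 0.699 and 54.7 ± 6.80 in the same order. The median log2 difference of the tested list was 0.25 and 0.32 with Ag2S NPs and 0.46 and 0.25 with Li-doped Ag2S NPs.

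**Figure D5:**
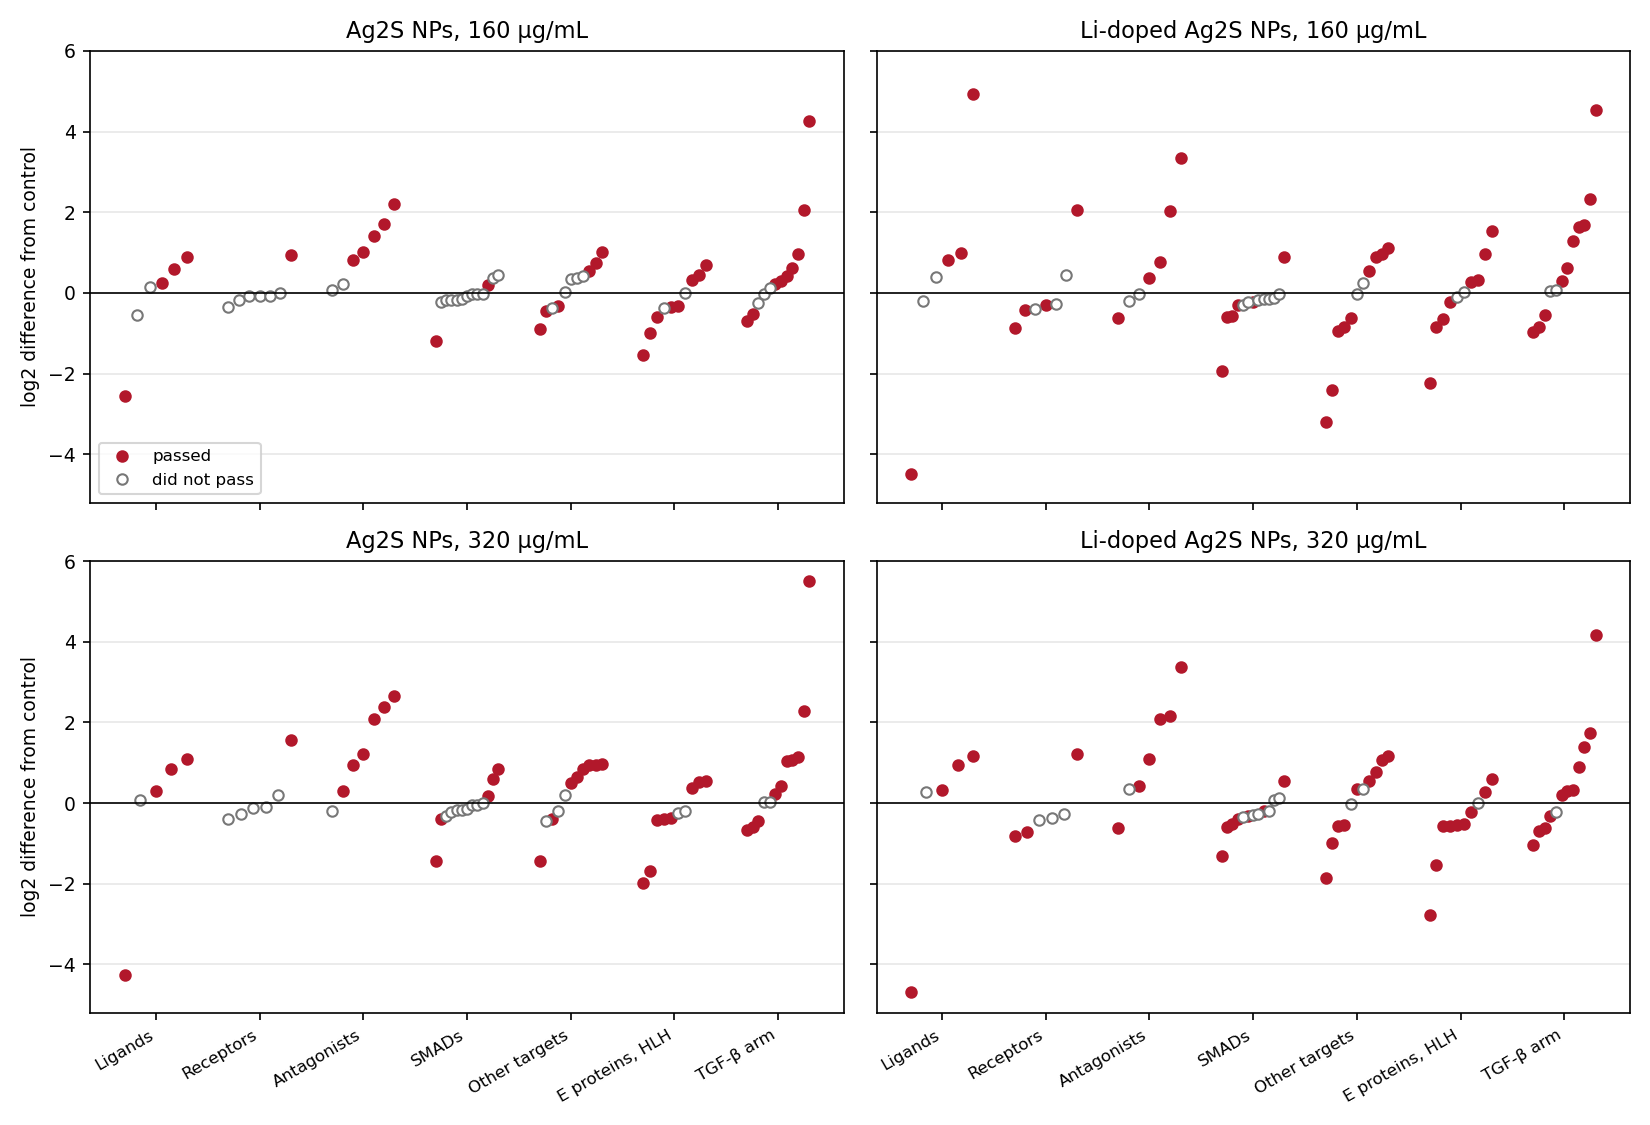
Log2 difference from control, on log2(FPKM + 0.1), of each tested gene of the 7 lists, for each particle and dose. Points are genes ordered within a list by value. Filled points passed the limma adjusted p of 0.05 and open points did not. The antagonists lie mostly above 0. Many receptors and SMADs lie near 0, while NEO1 lies above it and SMAD6 and, with Li-doped Ag2S NPs, BMPR2 lie below it.

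By Pearson's r over the 15 libraries, among 11944 genes with values in both tables, the genes nearest to the mean of ID1, ID2, ID3 and ID4 were RASSF5 (0.984), PCNA (0.98), RHOBTB3 (0.98) and PTGES (0.979), and those nearest to ID1 were FOXQ1 (0.977), OLFM4 (0.973), CYB5B (0.973) and IFI6 (0.972). These r values are a description with no test, because the 3 control libraries stand apart from the 12 treated libraries in all of these genes. PTGES, for instance, had a mean FPKM of 197 in control, 78.1 and 58.4 with Ag2S NPs and 38.3 and 55.9 with Li-doped Ag2S NPs, and PCNA had 127, 73.4, 58.3, 50.9 and 62.0 in the same order.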

How the data were processed

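RNA of HaCaT cells was sequenced in 15 libraries. The authors mapped the 150-base read pairs with TopHat and obtained expression with Cufflinks 2.1.1, with Cuffdiff for their group comparisons and its corrections for multi-mapping reads and fragment bias. Neither the genome build nor the annotation release is given in the sources used here, nor are the other versions. The deposited values are FPKM per gene and per transcript for each library, rounded to 2 decimals. The tables also hold the authors' group values, log2 ratios, p-values and q-values, which were not used, and tables of 2 groups were not used. No column of per-library values other than those of the 15 libraries was found.

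Groups were taken from the sample labels. Genes whose FPKM averaged 1 or more across the libraries in a fit were analysed on log2(FPKM + 0.1) with limma 3.58.1 in R 4.3.3 (lmFit, eBayes with a trend, 2-sided, Benjamini-Hochberg over all genes, adjusted p of 0.05). Comparisons with control and between particles used the 9 libraries of a dose, and dose comparisons all 15. The fit was tested on simulated data. No counts were recovered from FPKM, so intervals cover the spread between libraries only.

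The 10 members and the 7 lists of pathway genes were chosen with earlier results of these data known. All members were named. From each list some, and at most 6, of the genes with the smallest p-values against control at 320 μg/mL were named. Also named were genes whose particles differ in direction, and SMAD1, SMAD4, SMAD5, SMAD7, BMPR1A, BMPR2, BMP6, TCF3, TCF4 and TCF12 whatever they did. NOG was named beside BMP6 for its like pattern. Not all genes with small p-values were named, so an unnamed gene can have changed as much as a named one. Alternatives tried were pseudocounts of 1 and 0.01, no filter or one at a mean FPKM of 5, scaling by median ratio, a robust prior, 1 weight per library, a fit of the 2 compared groups alone, 1 fit over all 15 libraries, log2 ratios of mean FPKM and leaving out each library. Of the listed genes, BMP5, BMP10, GDF2, GDF3, GDF5, GDF10, CHRDL2, HAMP and CDKN2B were not analysed here. The result of 1 further listed gene is not reported here. All 18179 gene identifiers occur in GENCODE 29 on GRCh38, the source of gene coordinates. Promoter windows came from RefSeq (GRCh38.p14).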

Additional observations from a re-analysis of the deposited data

Results flagged for a closer look

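For 4 of the 8 tested members, the effect of raising the dose from 160 to 320 μg/mL differed between Li-doped and undoped Ag2S NPs by a test of the difference itself, an interaction term in the limma fit over 15 libraries. On the log2 scale the difference, Li-doped minus undoped, was 2.12 for ID3, 1.61 for ID2, 0.85 for SMAD6 and 0.47 for BMP2. All 3 libraries of Li-doped Ag2S NPs at 320 μg/mL were above all 3 at 160 μg/mL for each of these genes. The share of all genes separated in this way was not counted, while 19.6% were called higher at 320 μg/mL with this particle. Among all genes 39.7% passed the test of the difference, so such a difference was common in these data. The 2 dose groups of a particle cannot be told apart from other differences in how those cells were grown or sequenced, which the labels do not give.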

How the results depend on the processing

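The falls of ID1, ID2, ID3, ID4 and SMAD6 against control kept their direction and passed in all 380 values from the alternatives, as did the 4 differences of dose effects in ID2, ID3, SMAD6 and BMP2 in all 88. For BMP7 against control 72 of 76 values did, and the other 4 no longer passed. The values of ID4 are no support here, since ID4 passed the filter through the control. No paired analysis was possible because the 15 libraries carry 15 separate replicate numbers. Causes of the changes below were not tested.

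Scaling by median ratio gave 2 risen members with Li-doped Ag2S NPs at 160 μg/mL. For Li-doped against undoped Ag2S NPs at 320 μg/mL, no filter, scaling, the fit of the 2 groups alone and the fit over 15 libraries gave 0 fallen. With 1 weight per library, 1 member rose and 3 fell from 160 to 320 μg/mL of Ag2S NPs, and with no filter 1 fell with Li-doped Ag2S NPs. Leaving out each library gave 0 to 2 risen (Ag2S NPs at 160 μg/mL against control), 1 to 2 risen (Li-doped Ag2S NPs at 160 μg/mL against control), 0 to 1 fallen (particles at 320 μg/mL), and 0 to 1 risen and 0 to 1 fallen (dose of Ag2S NPs).

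Differences that had not passed changed sign. With 1 weight per library, BMP4 was -0.016 (Ag2S NPs at 320 μg/mL against control) and 0.24 (difference of dose effects), and ID4 was 0.0803 (particles at 160 μg/mL) and 0.075 (dose of Ag2S NPs).
Leaving out each library gave, for BMP4, -0.25 to 0.29 (Ag2S NPs at 320 μg/mL against control), -0.017 to 0.52 (particles at 320 μg/mL), -0.40 to 0.13 and -0.29 to 0.011 (dose of undoped and Li-doped Ag2S NPs) and -0.26 to 0.28 (difference of dose effects). For ID4 it gave -0.50 to 0.13 (particles at 160 μg/mL) and -0.47 to 0.16 (dose of Ag2S NPs), and at 320 μg/mL between particles -0.0051 to 0.21 for SMAD6 and -0.0066 to 0.067 for BMP2.
Of the 56 counts of the lists against control, 13 moved by over 1.5 times after scaling, 12 with no filter, 16 at a mean FPKM of at least 5, 8 with 1 weight per library, at most 4 under each other setting over all libraries, and 15 when any 1 library was left out. The depth behind FPKM is unknown, which limits the genes near 1 FPKM, ID4 in treated cells among them.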
